A study of Mus musculus with 6 samples.

Results

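Keratins, cadherins and stem cell surface adhesion molecules were followed in cultured mouse spermatogonial stem cells through 10 genes: the keratins Krt8, Krt18, Krt19 and Krt24, the cadherins Cdh1 and Cdh3, the epithelial adhesion molecule Epcam, the tetraspanin Cd9 and the integrin subunits Itga6 and Itgb1. They are 10 of the 34745 Ensembl genes of the deposited table, each matched by its gene name to 1 row. The genes were chosen from earlier results of the same comparison, so their differences between the groups are given as a description, without a p-value. The study set 3 libraries of cultures given 100 µM BPA (bisphenol A, an estrogen-mimicking chemical used to make plastics) in complete medium for about 4 days against 3 libraries of untreated cultures, for which the labels name no vehicle. All cultures were derived from DBA/2J X c57BL/6J mice at postnatal day 6 and were used at passages 15 to 20. Whether the replicates of a group were grown or derived separately is not in the labels, which also name no feeder layer, so the p-values reflect library-to-library spread that may be technical.

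Keratins are the intermediate filament proteins of epithelial cells, and a filament needs a type I keratin paired with a type II keratin. Krt8 (type II) and Krt18 (type I) form the pair of simple epithelia, and Krt19 and Krt24 encode further type I keratins. Cadherins join neighbouring cells and bind catenins inside the cell, which link them to actin. Integrins bind the extracellular matrix, and an α6 subunit with a β1 or β4 subunit makes a laminin receptor. Surface α6 and β1 integrin, CD9, EpCAM and E-cadherin are all used to enrich or mark undifferentiated spermatogonia in rodents.

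Summed gene counts were 14232872 to 22286517 in the BPA libraries and 13453280 to 19183912 in the untreated libraries. Levels of 1 gene across libraries are given as normalised counts (CPM, scaled by TMM factors), and levels between genes in the authors' FPKM, which also divides by gene length. The germ cell label was checked against 13 germ cell marker genes, all of which were counted in every library, with summed levels of 2056 to 2530 CPM in BPA cultures and 2310 to 2343 CPM in untreated cultures. Of these 13, 1 rose (Sall4) and 2 fell (Dnd1 and Id4), and all 3 missed the threshold without untreated replicate 1 or 2, among others. BPA replicate 2 stood apart from the other BPA libraries: chi-square values of their counts, per degree of freedom, were 64.2 and 84.5 for the pairs with it, against 18.9 to 25.4 for the other pairs within a group. Results that change most without that library are also given without it.

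Of the 10 genes, 5 were lower and 0 higher in BPA cultures at a false discovery rate of 0.05 in edgeR's quasi-likelihood test across all genes, and the median log2 fold change of the 10 was -0.75. Of all 13287 tested genes 6.28% were lower and 4.37% higher, with a median log2 fold change of 0.10. Since the genes were chosen with these values known, nothing is read from that difference. The lower genes were Krt8, Krt19, Krt24, Cdh3 and Cd9. At an unadjusted p under 0.05 in edgeR 6 were lower and 1 higher, DESeq2 called 6 lower and 0 higher, and limma-voom called 5 and 0. Over every gene with at least 1 count, a wider set than the 13287, DESeq2 called 1218 lower and 975 higher. Over the same 13287 genes as edgeR, limma-voom called 921 lower and 506 higher. No share was computed for either tool. For the unadjusted p no share over all genes was computed, here or for the families below, so those counts have no background. For 7 of the 10 the groups had no overlap, 6 lower in BPA cultures (15.7% of all tested genes) and 1 higher (15.6% of all tested genes). Without BPA replicate 2 the calls were 6 lower and 2 higher, against 1600 lower and 1207 higher over all genes kept by the filter in that fit. All genes together gave 580 higher and 835 lower calls, 831 and 786 with scaling by library size alone, and 534 and 1290 after each library was corrected for GC content and transcript length. That correction was added after the results were seen.

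**Figure D1:**
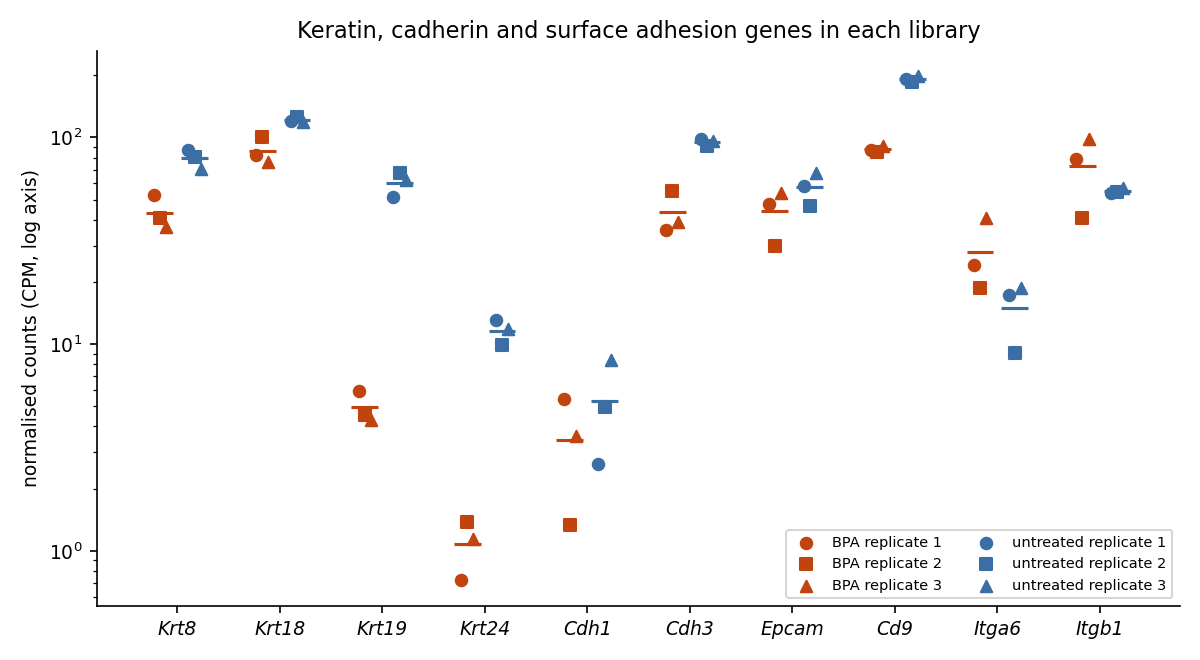
Normalised counts (CPM, log axis) of the 10 keratin, cadherin and surface adhesion genes, with BPA libraries left of untreated libraries, 1 symbol per library and a horizontal line at each group mean (n = 3). Krt19 lies at 4.32 to 5.96 CPM in BPA libraries and at 51.7 to 67.1 CPM in untreated ones, while the groups of Cdh1, Epcam and Itgb1 overlap.

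Krt19, a short type I keratin of simple and ductal epithelia, showed the widest gap (ENSMUSG00000020911, chromosome 11, 100140810 to 100148665, mm10). It was at 5.96, 4.56 and 4.32 CPM in BPA replicates 1 to 3, against 51.7, 67.1 and 62.5 CPM in untreated replicates 1 to 3. The groups were far apart, with no overlap. The fitted log2 fold change was -3.61 (SE 0.28), a 12.2-fold lower level, and it stayed between -3.76 and -3.52 when each library was left out in turn.

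Krt24, a type I keratin known from differentiating keratinocytes, lies on the same chromosome (ENSMUSG00000020913, 99279959 to 99285262). It had 11, 28 and 28 counts in the BPA libraries, against 238, 126 and 164 counts in the untreated libraries. This was 1.08 ± 0.34 CPM in BPA cultures and 11.6 ± 1.60 CPM in untreated cultures (SD, n = 3 each), and the groups had no overlap. The log2 fold change was -3.41 (SE 0.51). Krt19 and Krt24 both stayed past the threshold whichever library was left out.

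The simple keratin pair changed less. Krt8 (ENSMUSG00000049382, chromosome 15, 101996711 to 102004342) was at 52.5, 40.7 and 36.7 CPM in BPA libraries, against 86.6, 80.8 and 70.1 CPM in untreated libraries. The groups did not overlap, and the log2 fold change was -0.87 (SE 0.21). The call was lost without BPA replicate 3 or any 1 of the untreated libraries, where the log2 fold change was -0.76, -0.80, -0.85 and -0.90 (without BPA replicate 3 and untreated replicates 1, 2 and 3). A pseudogene copy, Krt8-ps, is 98.6% identical to the Krt8 transcript over 941 aligned bases and has no row in the table, so the Krt8 level is uncertain to the extent that reads could be placed on either. A gene on the opposite strand, Gm36026, also overlaps 5.16% of the Krt8 exon length, and the libraries do not mark strand.

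Krt18 (ENSMUSG00000023043, chromosome 15, 102028216 to 102032026) was at 82.1, 100.1 and 76.0 CPM in BPA libraries, against 119.8, 126.2 and 118.8 CPM in untreated libraries. These ranges did not overlap either, yet Krt18 missed the threshold in edgeR, with a log2 fold change of -0.50 (SE 0.17). It was past the threshold in DESeq2 (-0.51) and in edgeR without BPA replicate 2 (-0.62), and was at -0.23 after the GC and length correction. Krt8 and Krt18 are transcribed away from each other, with start sites 23874 bases apart by the loci of the deposited table. Krt18 also has a near copy with no row in the table, Gm5200 (90.2% identical over 1269 bases), so its level carries the same uncertainty.

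**Figure D2:**
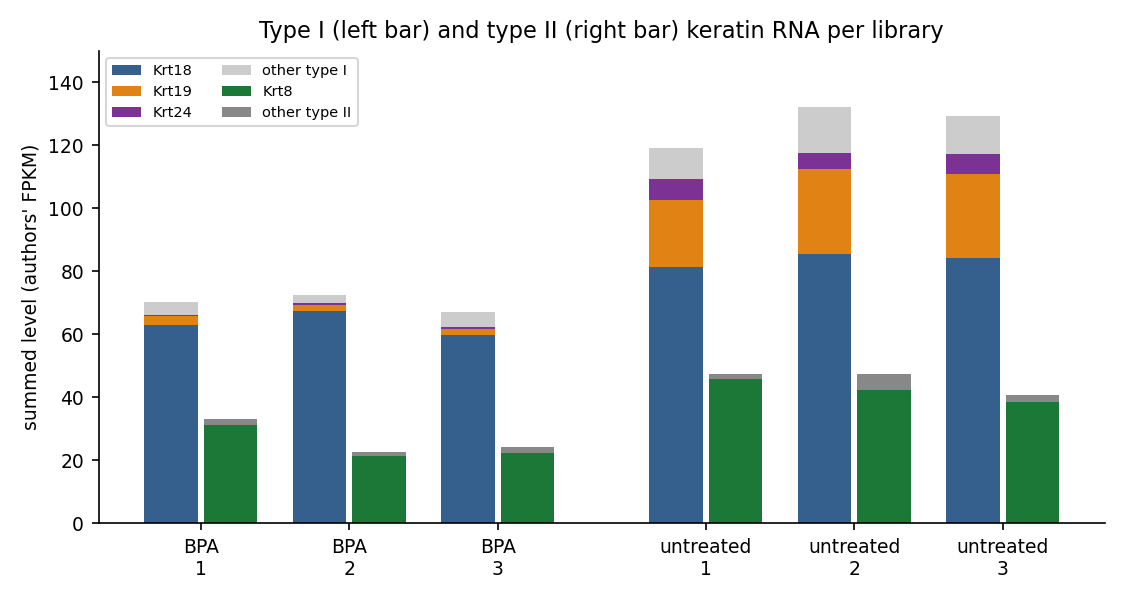
Summed FPKM of type I keratins (left bar of each pair) and type II keratins (right bar) in each library, BPA left and untreated right, split by gene. The share of Krt19 in the type I sum is 2.54% to 3.91% in BPA libraries and 17.7% to 20.6% in untreated ones.

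Summed over all 28 type I keratin genes of the table, the FPKM level was 69.8 ± 2.71 in BPA cultures and 126.8 ± 6.93 in untreated cultures (SD, n = 3 each). For the 22 type II genes it was 26.5 ± 5.71 in BPA cultures and 45.1 ± 3.80 in untreated cultures. The ratio of the type I to the type II sum was 2.71 ± 0.56 in BPA cultures and 2.83 ± 0.33 in untreated cultures, a difference within the spread between libraries. The make-up of the type I sum did differ: Krt18 supplied 90.6% ± 2.02 of it in BPA cultures and 66.0% ± 2.07 in untreated cultures. Krt19 supplied 3.16% ± 0.69 in BPA cultures and 19.6% ± 1.65 in untreated cultures. Krt24 supplied 0.863% ± 0.23 in BPA cultures and 4.81% ± 0.91 in untreated cultures. Krt8 made up nearly all of the type II sum in both groups, at 94.0% ± 0.92 in BPA cultures and 93.6% ± 3.61 in untreated cultures.

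Keratins other than these 4 were rare. Of the 46 others counted, 20 had no count in any library, 9 had enough counts to be tested, and their summed level was 9.27 to 12.7 CPM in BPA libraries and 26.8 to 41.0 CPM in untreated libraries. Of the 9, 1 fell, 0 rose in edgeR, and the median log2 fold change was -1.68. At an unadjusted p under 0.05 in edgeR 4 were lower and 0 higher, with no share over all genes to compare. DESeq2 called 3 lower and 0 higher. The one that fell, Krt25, a type I keratin of the hair follicle root sheath, had 0 counts in BPA libraries and 69 in untreated libraries, at least 30.8-fold lower when BPA libraries are set to 3 counts in all (edgeR adjusted p = 0.036). Leaving out any one of the 6 libraries took it past 0.05 (at most 0.131 in edgeR). Krt17, a keratin of stressed and basal epithelium chosen after its values were seen, had 4, 2 and 5 counts in BPA libraries and 29, 62 and 38 counts in untreated libraries (-3.99, SE 1.19, edgeR adjusted p = 0.051). Among other intermediate filament and plakin genes 1 of 18 rose and 0 fell, namely Lmnb2, which encodes lamin B2 of the nuclear lamina, at 122.0 ± 19.8 CPM in BPA cultures and 70.1 ± 7.52 CPM in untreated cultures (0.80, SE 0.19, edgeR adjusted p = 0.019). Lmnb2 lost the threshold without untreated replicate 1 or 2 (edgeR adjusted p up to 0.0925). In that family 4 were higher and 0 lower at an unadjusted p under 0.05, 3 and 0 in DESeq2 and with GC content and length corrected for, and 2 and 2 without BPA replicate 2.

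The promoters of 4 of the lower-lying genes are shown because the keratin pair shares a locus and because Krt24 and Cd9 are the most changed genes with an entry in the RefSeq promoter table, which held 6 of the 10 genes. Each is the 250 bases before the annotated start, read 5′ to 3′ on the strand of the gene (RefSeq, GRCm38.p6), from chr15:102004343-102004592 on the minus strand for Krt8, chr15:102027966-102028215 on the plus strand for Krt18, chr11:99285263-99285512 on the minus strand for Krt24 and chr6:125494761-125495010 on the minus strand for Cd9. Capitals mark matches, on either strand, to the GC box GGGCGG, the TATA box TATAAA, the CAAT box CCAAT, the AP-1 site TGANTCA, the E2 box CACCTG that Snail and ZEB repressors bind, and the ATF4 composite element TGATGNAA.
Krt8: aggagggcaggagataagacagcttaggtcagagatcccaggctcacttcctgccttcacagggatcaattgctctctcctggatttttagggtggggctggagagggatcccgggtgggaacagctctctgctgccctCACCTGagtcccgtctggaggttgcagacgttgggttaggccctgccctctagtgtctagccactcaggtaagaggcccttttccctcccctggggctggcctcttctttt
Krt18: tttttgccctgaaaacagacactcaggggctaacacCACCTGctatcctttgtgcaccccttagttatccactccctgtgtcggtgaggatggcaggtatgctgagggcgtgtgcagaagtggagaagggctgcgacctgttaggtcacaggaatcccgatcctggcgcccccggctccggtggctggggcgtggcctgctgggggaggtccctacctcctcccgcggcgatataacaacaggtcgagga
Krt24: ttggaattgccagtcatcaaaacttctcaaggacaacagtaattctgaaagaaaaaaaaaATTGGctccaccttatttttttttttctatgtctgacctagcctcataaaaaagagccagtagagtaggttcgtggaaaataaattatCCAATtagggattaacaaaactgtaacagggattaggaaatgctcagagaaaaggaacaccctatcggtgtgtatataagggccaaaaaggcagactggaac
Cd9: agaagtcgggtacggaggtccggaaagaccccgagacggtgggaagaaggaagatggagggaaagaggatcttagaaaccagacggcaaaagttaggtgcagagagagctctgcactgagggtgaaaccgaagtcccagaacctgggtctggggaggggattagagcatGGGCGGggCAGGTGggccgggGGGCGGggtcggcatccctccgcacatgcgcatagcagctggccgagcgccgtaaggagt

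Krt8, Krt18 and Cd9 each held 1 E2 box, beginning 111, 214 and 73 bases before the RefSeq start. Epcam held 2, so that 4 of the 6 promoters had one, against 17.2% of all 32851 promoters of the same length. Krt19, Cdh1, Cdh3 and Itga6 had no entry, so their promoters were not searched, and enrichment was not tested. GENCODE places the starts of Krt8, Krt18 and Cd9 at 102004482, 102028180 and 125494791, inside these windows. By GENCODE the Krt8 box therefore lies within the gene, while the Krt18 and Cd9 boxes lie before it. The Krt24 promoter had no E2 box, was AT-rich with a GC content of 36.8%, and held CCAAT or its complement at 190 and 102 bases before the start. Of all promoters 33.8% hold at least 1 such match at any position, and no share was computed for more than 1. GC boxes lay in the promoters of Cd9, Epcam and Itgb1 (32.7% of all promoters). The AP-1 letters (6.75% of all promoters), the ATF4 letters (3.45%) and TATAAA (12.4%) were found in none of the 6 windows.

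Cdh3 and Cdh1 lie in tandem on chromosome 8, with 46443 bases from the end of the first to the start of the second. Cdh3, which encodes P-cadherin, a classical cadherin of basal epithelium and placenta (ENSMUSG00000061048, 106510913 to 106556908), was at 35.9, 55.4 and 38.9 CPM in BPA libraries, against 97.8, 90.6 and 96.1 CPM in untreated libraries. The highest BPA library, replicate 2, still lay well below the lowest untreated one. The log2 fold change was -1.13 (SE 0.21), and Cdh3 stayed past the threshold whichever library was left out, with -1.34 without BPA replicate 2.

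Cdh1, which encodes E-cadherin (ENSMUSG00000000303, 106603351 to 106670246), was near the lower end of what was measured, with 83, 27 and 88 counts in BPA libraries and 48, 63 and 116 counts in untreated libraries. These were 5.43, 1.34 and 3.59 CPM in BPA cultures and 2.63, 4.94 and 8.42 CPM in untreated cultures, so the groups overlapped. Its log2 fold change of -0.63 had an SE of 0.69 and moved between -1.10 and -0.06 as each library was left out. Per length, Cdh3 was the more abundant of the pair in every library, with at least 9.69 FPKM against at most 1.52 FPKM of Cdh1.

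Of 7 other cadherins tested, 1 fell and 0 rose in edgeR (1 lower and 2 higher at an unadjusted p under 0.05, and 1 and 1 in DESeq2), with a median log2 fold change of -0.68. It was Cdh15, M-cadherin of muscle satellite cells, at 32.5 ± 8.37 CPM in BPA cultures and 60.3 ± 7.25 CPM in untreated cultures (-0.89, SE 0.24, edgeR adjusted p = 0.037), which, with 1 library left out, kept its call only without BPA replicate 2 (at most 0.155 in edgeR otherwise). Catenins and other adherens junction genes had 5 of 15 members higher and 0 lower in edgeR, with a median log2 fold change of 0.73. At an unadjusted p under 0.05 in edgeR 7 were higher and 0 lower, with no share over all genes to compare. DESeq2 called 6 higher and limma-voom 4 higher, with 0 lower in both. Ajuba, a LIM protein of junctions that also acts in Hippo signalling, was at 256.7, 476.9 and 283.8 CPM in BPA libraries, against 159.4, 182.2 and 136.5 CPM in untreated libraries (1.09, SE 0.22, edgeR adjusted p = 0.01). The groups did not overlap, and the log2 fold change was 0.76 without BPA replicate 2, the highest library, but the call was lost when untreated replicate 1 was left out (0.0693 in edgeR). Vcl, which encodes vinculin, the actin linker of junctions and focal adhesions, rose by 1.19 (SE 0.28, edgeR adjusted p = 0.021), and Ctnna1, α-catenin, by 0.61 (SE 0.16, edgeR adjusted p = 0.034). Ctnnb1, β-catenin, and Plekha7, which binds p120 catenin, also passed and were chosen after their values were seen (0.63 and 1.51, edgeR adjusted p = 0.035 and 0.042). The count of 5 was 1, 5 and 2 without BPA replicates 1, 2 and 3, and 0, 2 and 3 without untreated replicates 1, 2 and 3. With GC content and length corrected for, the family's median was 0.34 and Ctnna1 also missed the threshold (0.40, edgeR adjusted p = 0.0805).

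**Figure D3:**
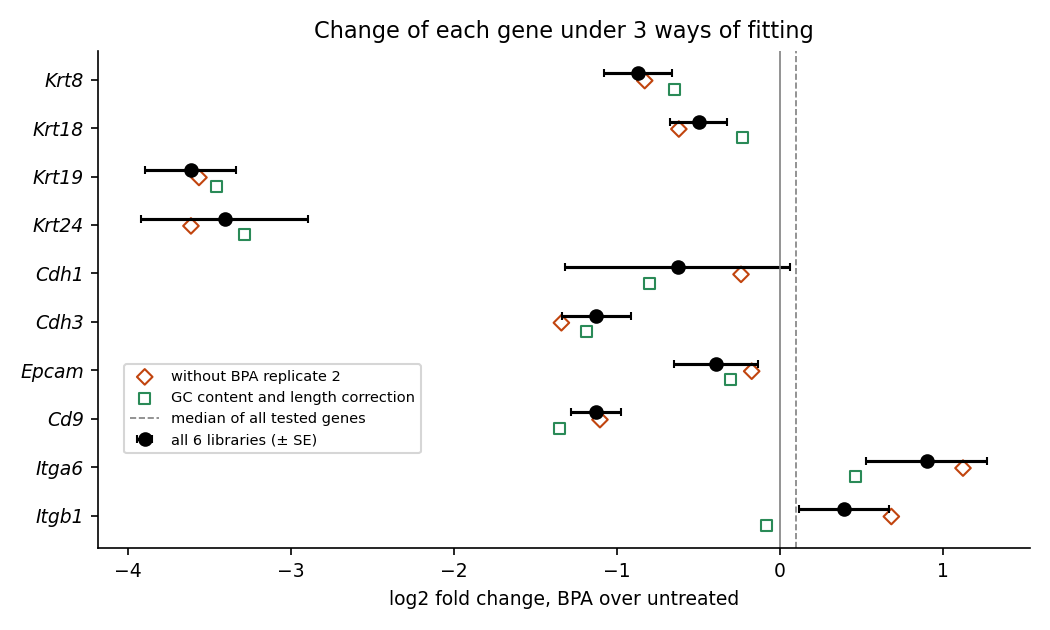
Log2 fold change of each of the 10 genes, BPA over untreated, with its standard error from all 6 libraries (filled circles), without BPA replicate 2 (open diamonds) and after the GC and length correction (open squares). The dashed line at 0.10 is the median of all 13287 tested genes. Itgb1 is at 0.39, 0.68 and -0.08 in the 3 fits, while Krt19 stays at -3.61, -3.56 and -3.45.

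Epcam, whose protein holds epithelial and germline stem cells together and stabilises claudins (ENSMUSG00000045394, chromosome 17, 87635979 to 87651106), was at 47.9, 29.8 and 53.9 CPM in BPA libraries, against 58.4, 46.5 and 67.5 CPM in untreated libraries. The groups overlapped, and BPA replicate 2 was the lowest of the 6. The log2 fold change was -0.39 (SE 0.26), and -0.17 without BPA replicate 2. Of 16 tight junction genes and EpCAM partners 1 rose and 1 fell in edgeR (2 and 2 at an unadjusted p under 0.05, 1 and 2 in DESeq2), with a median log2 fold change of 0.21. F11r, the junctional adhesion molecule JAM-A, was at 63.05, 58.5 and 61.7 CPM in BPA libraries, against 103.1, 119.4 and 125.8 CPM in untreated libraries (-0.93, SE 0.17, edgeR adjusted p = 0.0062), and passed without each library in turn. Cldn12, a claudin, rose by 1.10 (SE 0.24, edgeR adjusted p = 0.014), but missed the threshold without BPA replicate 3 or untreated replicate 1 (up to 0.088 in edgeR) and after the GC and length correction (0.53, edgeR adjusted p = 0.176). Of 5 desmosomal genes 1 rose and 0 fell in edgeR (the same at an unadjusted p under 0.05 and in DESeq2): Pkp2, plakophilin 2, at 47.7 ± 4.13 CPM in BPA cultures and 23.7 ± 3.70 CPM in untreated cultures (1.01, SE 0.24, edgeR adjusted p = 0.02). It lost the threshold without BPA replicate 1 or untreated replicate 1 or 2 (edgeR adjusted p up to 0.111).

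Cd9, a tetraspanin that organises integrins in the membrane (ENSMUSG00000030342, chromosome 6, 125460266 to 125494791), was at 86.5, 84.9 and 91.4 CPM in BPA libraries, against 190.9, 185.3 and 198.4 CPM in untreated libraries. The groups did not overlap, with a log2 fold change of -1.13 (SE 0.15) that ranged from -1.16 to -1.06 as each library was left out. An antisense gene, Gm26728, overlaps 10.7% of the Cd9 exon length and had 0 counts in all libraries, as did the pseudogene Cd9-ps (90.7% identical over 664 bases). The libraries do not mark strand, so reads in the bases shared with Gm26728 cannot be told apart. Its 0 counts therefore do not show that it was silent. Of 22 other tetraspanins and CD9 partners 1 rose and 2 fell in edgeR, with a median log2 fold change of -0.09. At an unadjusted p under 0.05 in edgeR 2 were higher and 7 lower, with no share over all genes to compare. DESeq2 called 1 higher and 6 lower. Tspan17, which helps traffic the protease ADAM10, was at 5.95 ± 3.33 CPM in BPA cultures and 22.5 ± 3.94 CPM in untreated cultures (-1.92, SE 0.43, edgeR adjusted p = 0.015). Cd82, a tetraspanin studied as a metastasis suppressor, fell by 0.80 on the log2 scale (edgeR adjusted p = 0.044), and Tspan31 rose by 0.79 (edgeR adjusted p = 0.025). Tspan17 kept its call without BPA replicate 2 or untreated replicate 2 only, and the other two without BPA replicate 2 only (edgeR adjusted p up to 0.183). With scaling by library size alone Cd82 also missed it (-0.69, edgeR adjusted p = 0.0609). Without BPA replicate 2, 7 of the family were lower, and 4 were lower after the GC and length correction.

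Both integrin subunits were spread widely among BPA libraries. Itga6 (ENSMUSG00000027111, chromosome 2, 71745616 to 71858416) was at 24.3, 18.8 and 41.0 CPM in BPA libraries, against 17.3, 9.10 and 18.7 CPM in untreated libraries. The lowest BPA value and the highest untreated value were almost equal, so the groups barely separated. The log2 fold change of 0.90 (SE 0.37) did not pass the threshold. A gene model with no row in the table, Gm29397, is 100% identical to Itga6 over 326 bases, so reads there could be placed on either. Itgb1 (ENSMUSG00000025809, chromosome 8, 128685654 to 128733200) was at 78.8, 40.8 and 97.9 CPM in BPA libraries, against 54.1, 54.5 and 56.8 CPM in untreated libraries. Untreated libraries nearly coincided, with BPA replicate 2 below and BPA replicates 1 and 3 above them. Its log2 fold change of 0.39 (SE 0.28) did not pass. Without BPA replicate 2 both subunits were past the threshold as higher, Itga6 at 1.12 and Itgb1 at 0.68, and after the GC and length correction they were at 0.46 and -0.08 and not past it.

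Of 15 other integrin subunits none passed in edgeR, DESeq2 or limma-voom, and 1 was lower and 0 higher at an unadjusted p under 0.05 in edgeR. The most abundant per length was Itgb5, of a vitronectin receptor, at 234.0 ± 43.7 CPM in BPA cultures and 314.7 ± 40.5 CPM in untreated cultures (-0.43, SE 0.17, edgeR adjusted p = 0.14; it passed without BPA replicate 2). Itgb4, the other partner of α6, was at 4.39, 13.2 and 3.42 CPM in BPA libraries and 5.20, 7.06 and 2.54 CPM in untreated libraries. Of 16 integrin adaptor genes 0 passed in edgeR and limma-voom and 3 were higher in DESeq2. At an unadjusted p under 0.05 in edgeR 6 were higher and 1 lower, with no share over all genes to compare. Fermt1, Ilk and Parvg had 0 counts in every library and were not tested, so the family was not measured in full. Bcar1, the docking protein p130Cas, was at 237.6 ± 56.7 CPM in BPA cultures and 159.7 ± 22.5 CPM in untreated cultures (0.57, SE 0.19, edgeR adjusted p = 0.08, and 0.37 without BPA replicate 2). It was past the threshold in DESeq2 (0.0423), and in edgeR with scaling by library size alone (0.0178), with no low-count filter (0.0204) and after the GC and length correction (0.69, edgeR adjusted p = 0.00809). Among 17 laminins and other ligands 1 rose and 0 fell in edgeR (3 and 0 at an unadjusted p under 0.05, 2 and 0 in DESeq2). Lamb2, which encodes the laminin β2 chain, was at 132.8 ± 63.1 CPM in BPA cultures, highest in replicate 2 (204.5 CPM), and at 46.8 ± 4.98 CPM in untreated cultures, without overlap. It was 2.84-fold higher (SE of the log2 fold change 0.28, edgeR adjusted p = 0.0065), a log2 fold change of 1.05 without BPA replicate 2, and stayed past the threshold whichever library was left out.

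BPA replicate 2 was the lowest BPA library for Cdh1, Itgb1, Itga6 and Epcam and the highest for Cdh3, Krt24 and Krt18. Set against the mean of BPA replicates 1 and 3, on the log2 scale with 0.5 CPM added, it was at -1.45 for Cdh1, -1.11 for Itgb1, -0.78 for Itga6 and -0.76 for Epcam, and at 0.56 for Cdh3, 0.40 for Krt24 and 0.34 for Krt18. Over all tested genes this ratio moved with the GC content of the transcript. Its median was -0.85 in the lowest quartile of GC content (31.0% to 45.7%), -0.14 and 0.26 in the middle quartiles and 0.48 in the highest (55.1% to 75.5%). The same ratio for untreated replicate 2 had medians of -0.16 to 0.07. Itgb1, at a GC content of 44.8%, lay in the lowest quartile and near its median, whereas Cdh1 (50.7%) and Epcam (52.7%) lay below the median of theirs. Itga6 (48.9%), Krt18 (56.4%), Krt8 (57.1%, at -0.13) and Krt19 (57.6%, at -0.16) also lay below the median of their quartile. Cd9 (45.9%, at -0.07), Cdh3 (52.1%) and Krt24 (53.2%) lay above it. Of the 13 germ cell markers, Ddx4 and Dazl, chosen after their values were seen, were also low in this library, while the sum over all 13 was higher there than in the other BPA libraries (2530 CPM). Ddx4 was at 9.61 CPM in BPA replicate 2 against 48.2 and 41.2 CPM in the other BPA libraries, and Dazl was at 114.0 against 234.5 and 305.2 CPM. The part of base composition or cell make-up in these values was not tested.

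**Figure D4:**
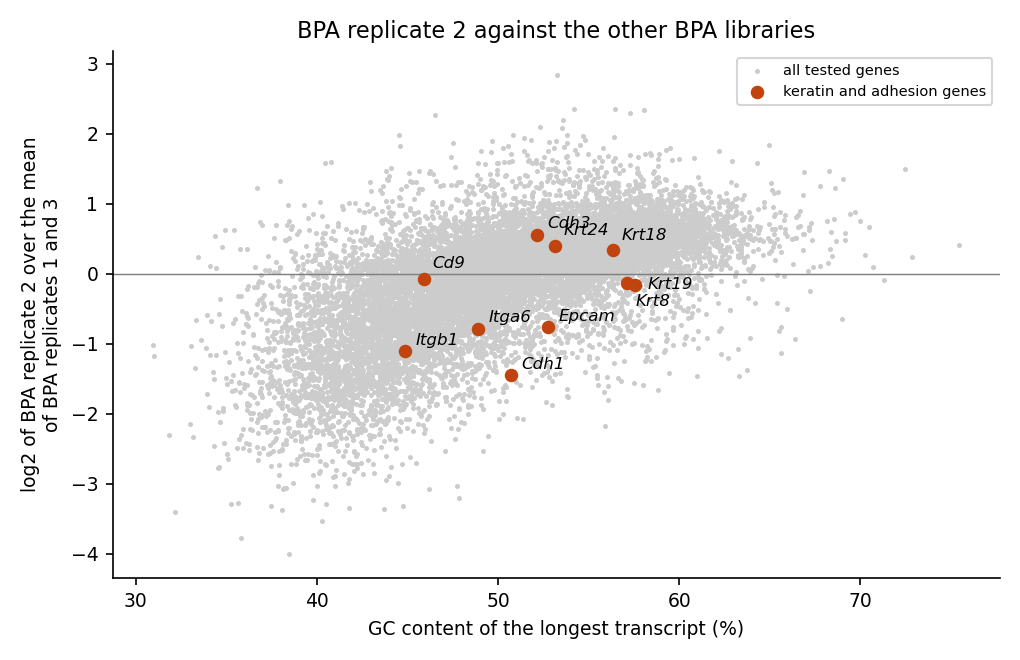
Log2 ratio of BPA replicate 2 to the mean of BPA replicates 1 and 3 (0.5 CPM added) against the GC content of the longest transcript, for all tested genes (grey) and the 10 keratin and adhesion genes (labelled). Itgb1 at -1.11 sits within the low cloud of AT-rich genes, and Cdh1 at -1.45 sits below the median of its GC quartile.

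Ordered by FPKM, Krt18 was the most abundant of the 10 in both groups, at 63.3 ± 3.80 in BPA cultures and 83.7 ± 2.04 in untreated cultures (SD, n = 3 each). Cd9 came next, at 38.5 ± 4.42 in BPA cultures and 78.0 ± 4.64 in untreated cultures, where its range overlapped that of Krt18. In BPA cultures Krt8 (24.9 ± 5.46), Epcam (22.7 ± 7.97), Itgb1 (13.6 ± 6.24) and Cdh3 (11.2 ± 1.75) followed, each overlapping the next. Itga6 (2.41 ± 1.14) and Krt19 (2.21 ± 0.47) overlapped, and Cdh1 (0.669 ± 0.42) and Krt24 (0.602 ± 0.16) came last and overlapped. In untreated cultures Krt8 (42.2 ± 3.55) stood apart, and Epcam (27.2 ± 5.61), Krt19 (25.0 ± 3.37) and Cdh3 (23.0 ± 1.24) overlapped. Itgb1 (9.40 ± 0.49), Krt24 (6.06 ± 0.87), Itga6 (1.18 ± 0.42) and Cdh1 (0.941 ± 0.54) followed, the last pair overlapping. Itga6 was divided by a length of 12308 bases, the longest of the 10, which lowers its FPKM.

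Other surface molecules used to sort spermatogonial stem cells had 1 of 16 members higher and 0 lower in edgeR (3 and 3 at an unadjusted p under 0.05, 1 and 1 in DESeq2). After the GC and length correction 0 were higher and 3 lower, and without BPA replicate 2 there were 2 and 2. Il6st, the shared gp130 receptor of the LIF family, was at 43.3, 45.9 and 58.1 CPM in BPA libraries, against 19.4, 23.2 and 16.3 CPM in untreated libraries (1.32, SE 0.25, edgeR adjusted p = 0.0069). It missed the threshold without untreated replicate 1 (0.0509 in edgeR) and once GC content and length were corrected for (0.75, edgeR adjusted p = 0.0717). Of 16 epithelial and mesenchymal transcription and splicing factors 1 rose and 1 fell in edgeR (3 and 3 at an unadjusted p under 0.05, 1 and 2 in DESeq2). Esrp1, an epithelial splicing regulator, was at 61.2, 54.8 and 58.3 CPM in BPA libraries, against 106.5, 103.0 and 120.3 CPM in untreated libraries (-0.92, SE 0.17, edgeR adjusted p = 0.0064), and passed without each library in turn. Zeb1, a repressor of epithelial genes, was at 11.3, 7.09 and 12.2 CPM in BPA libraries, against 1.81, 1.81 and 4.43 CPM in untreated libraries (1.92, SE 0.54, edgeR adjusted p = 0.039). Zeb1 kept its call only without BPA replicate 2 or untreated replicate 3 (edgeR adjusted p up to 0.159 otherwise), and lost it in limma-voom (0.0585) and after the GC and length correction (0.062 in edgeR). Over the 12 related families together 12 of 172 tested genes were higher (6.98%) and 6 lower (3.49%), and 11 and 12 after that correction. Without BPA replicates 1, 2 and 3 these were 5, 19 and 6 higher and 2, 18 and 2 lower, and without untreated replicates 1, 2 and 3 they were 2, 5 and 9 higher and 2, 3 and 3 lower.

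**Figure D5:**
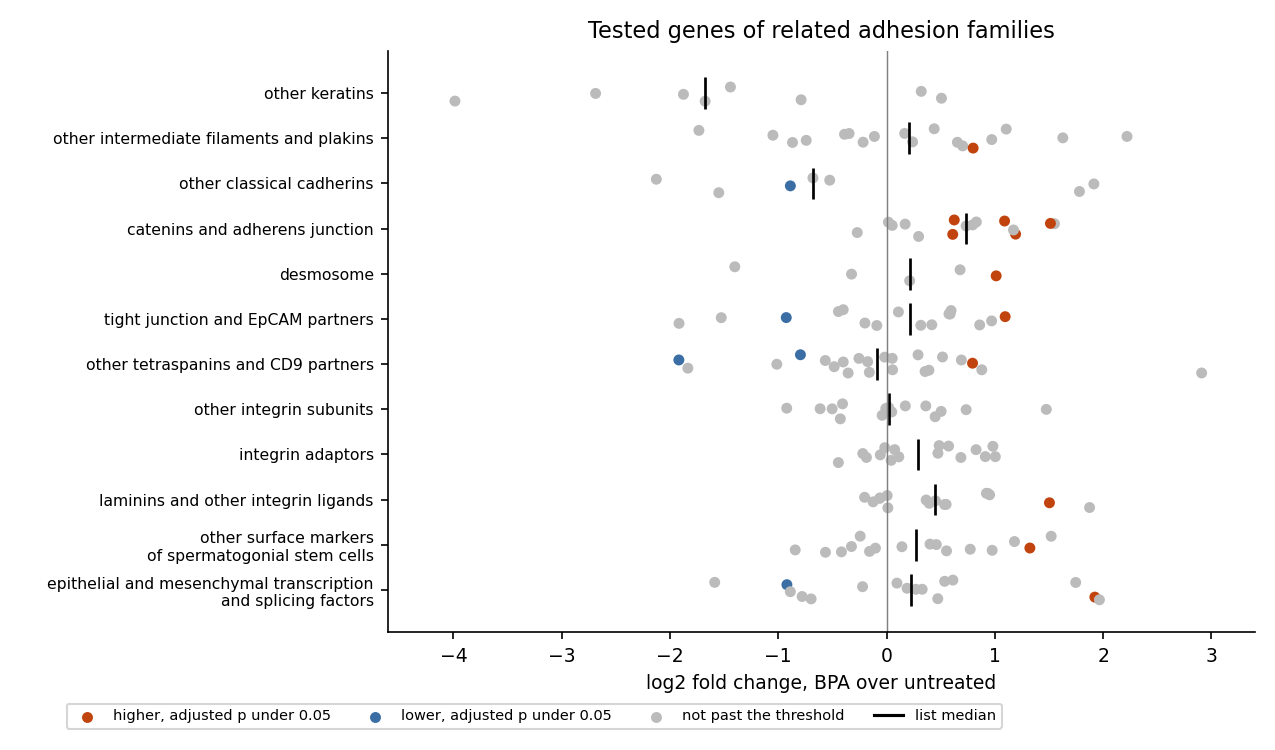
Log2 fold change, BPA over untreated, of each tested gene in 12 related adhesion families, coloured by whether it passed an edgeR adjusted p of 0.05, with a black line at the family's median. Krt25 and Lamb3, which had 0 counts in a whole group, are not drawn but count in the medians. Catenins and adherens junction genes have 5 of 15 genes higher and a median of 0.73, and other integrin subunits have none past the threshold.

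Marker genes of other cell types were measured in the same libraries, and in bulk RNA fewer cells of a type and less RNA per cell cannot be told apart. The 12 Sertoli cell markers summed to 126.5 to 162.3 CPM in BPA libraries and 46.7 to 60.7 CPM in untreated libraries, with 2 of 6 tested higher (Sox9 and Clu, of which Sox9 missed the threshold without untreated replicate 1, at 0.0594 in edgeR) and Fshr and Rhox5 at 0 counts in every library. The 15 fibroblast markers summed to 140.0 to 226.0 CPM in BPA libraries and 203.6 to 279.3 CPM in untreated libraries, with 2 of 13 tested lower (Tagln and Loxl1, both past 0.05 in edgeR without BPA replicate 1 or 3 or untreated replicate 1 or 2). Of these fibroblast markers 5 were lower at an unadjusted p under 0.05 and after the GC and length correction, 4 in DESeq2 and without BPA replicate 2, and 0 with scaling by library size alone. The 11 markers of trophoblast and other epithelium summed to 29.0 to 33.6 CPM in BPA libraries and 20.0 to 27.3 CPM in untreated libraries, and 0 of 4 tested passed in edgeR or DESeq2 (1 at an unadjusted p under 0.05). The 8 blood and endothelial markers summed to 35.03 to 50.9 CPM in BPA libraries and 64.8 to 66.5 CPM in untreated libraries, and 0 of 4 tested passed in edgeR or DESeq2 (2 at an unadjusted p under 0.05). The 9 Leydig and peritubular markers summed to 1.96 to 2.08 CPM in BPA libraries and 2.25 to 4.24 CPM in untreated libraries, with 5 of them at 0 counts throughout. The part of these cells in the keratin and adhesion values was not tested.

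The genes whose levels over the 6 libraries were most like those of Krt19, among 11824 others of at least 1 CPM, were Coro1a (Pearson r = 0.998 of log2(CPM + 1)), Pygl (0.997) and Dynlt1c (0.997). Coro1a, an actin-binding protein of leukocytes, was at 46.6 ± 4.58 CPM in BPA cultures and 156.4 ± 16.5 CPM in untreated cultures. Pygl, liver glycogen phosphorylase, was at 9.10 ± 1.33 CPM in BPA cultures and 34.6 ± 1.10 CPM in untreated cultures. Dynlt1c, a dynein light chain with close paralogs whose reads may be shared, was at 35.3 ± 2.37 CPM in BPA cultures and 87.3 ± 3.12 CPM in untreated cultures. These correlations follow the difference between the 2 groups of 3 libraries.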

How the data were processed

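Libraries were made with the TruSeq RNA v2 kit, which does not mark strand, from miRNeasy extracts, per the labels' protocols. Per the submitters' processing notes, TopHat2 2.0.9, HTSeq and mm10 were used. For the annotation release, nothing is given in the sources used here. The authors' deposited table holds raw gene counts and FPKM of the authors, and columns were matched to samples by the code in each title. The FPKM equal the counts over length and library total to within a relative 4.5e-04 (genes of at least 10 counts), which gave the lengths.

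edgeR 4.0.16 (R 4.3.3) tested the counts of 13287 genes kept by filterByExpr, with TMM scaling, Benjamini-Hochberg adjustment and a threshold of 0.05. SE is the log2 fold change over the square root of F. The biological coefficient of variation was 0.44. Fits were first tested on simulated counts with the same dispersion for every gene and no GC trend. That test checks the code and does not show how the fits perform on these libraries. DESeq2 1.42.0, limma-voom 3.58.1, other scalings and filters, a false discovery rate of 0.01, each library left out and a replicate block were alternatives. A lowess correction for GC content and length (span 0.3) was added later. GENCODE vM21 (GRCm38) gave strand, overlaps and GC content, and blastn 2.17.0 the copies (at least 90% identity over 200 bases). Floors of 3 counts cover counting error only.

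The 10 genes and the lists of related families and cell type markers were chosen with earlier results of these data known. The related families were written from family membership. All 10 genes are named, and from each family up to 3 genes that passed, by smallest adjusted p, or the most abundant per length where none passed, and the 3 genes most like the most changed of the 10. Figures were drawn with matplotlib 3.10.9.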

Additional observations from a re-analysis of the deposited data

How the results depend on the processing

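Every call of Krt19, Krt24, Cdh3 and Cd9 held in all alternatives run, including without each library. These fits reuse the libraries from which the genes were chosen, so this describes the processing and is no support for the differences. With 3 libraries a group and a coefficient of variation of 0.44, Cdh1 had an SE of 0.69 on the log2 scale. Itgb1 (0.39) turned to -0.0797 after the GC and length correction. Of all genes, the number higher (580) was 975 in DESeq2, 927 with no low-count filter, 155 at a false discovery rate of 0.01 and 162 to 1207 without 1 library. DESeq2 and the fit with no low-count filter took every gene with at least 1 count, more than the 13287 of the main fit. The number lower (835) was 1290 after the GC and length correction, 322 at 0.01 and 282 to 1600 without 1 library. Of the 10 genes, 4 to 6 were lower and 0 to 2 higher without 1 library. Over the related families the number higher (12) was 20 in DESeq2, 20 with no low-count filter, 2 at 0.01 and 2 to 19 without 1 library. The number lower (6) was 16 in DESeq2, 12 after the correction, 2 at 0.01 and 2 to 18 without 1 library. These pooled counts in DESeq2 and with no low-count filter could include listed genes outside the 172 that edgeR tested. The family counts given above do not. The cause of these changes in number was not tested. The labels do not say whether same-numbered replicates of the groups were paired, and the main fit did not pair them. Correlations of same-numbered deviations from the group means were -0.02, 0.06 and 0.07. With 3 libraries a group these cannot decide it. With a replicate block 721 genes were higher and 985 lower, 5 of the 10 were lower and 0 higher, and 17 and 7 of the related genes were higher and lower. Of the 28 genes named from the 10 and the families, 26 kept their side of the threshold with the block, Krt25 missed it and Bcar1 passed it. Among same-numbered libraries, BPA replicates 2 and 3 correlated best with their own number and BPA replicate 1 did not.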
